A study of Mus musculus with 18 samples.

Results

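Cells from CARM1 knockout and NFIB mutant tumors, the mutant genotypes of a mouse model of small cell lung cancer, were compared by RNA-seq. The comparison covered all 46078 gene rows of the count table, without its 5 summary rows. These are all of the gene rows of the series, and 15514 of them had enough reads to be tested. All mice carried floxed Rb1 and Trp53 (p53 in the labels) and a floxed Rbl gene, together called TKO. The labels name Rbl1 as that gene, whereas the text of the study names Rbl2. CARM1 knockout tumors (TKO;Carm1KO) carried floxed Carm1 in addition, so that CARM1 was lost only in cells that had met Cre. NFIB mutant tumors (TKO;NfibR388K) carried a germline change of arginine 388 of NFIB to lysine, which was present in every cell of the animal. Cre was given to the lungs by adenovirus at an age of 8 weeks, with a promoter not given in the sources used here, and cells were taken 28 weeks later. The methods describe sorting by a tdTomato reporter that marks cells with Cre activity. There were 3 libraries per genotype, each from a separate animal according to the labels. TKO libraries took part in the filter, the scaling and the estimate of the spread, but not in the difference itself.

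CARM1 is an enzyme that adds methyl groups to arginine residues of histones and transcription factors. NFIB is a transcription factor of the nuclear factor I (NFI) family, known in small cell lung cancer for frequent gain of its gene, and the NFI factors bind DNA through the half-site TTGGC. Arginine 388 is the residue of NFIB that CARM1 methylates. A comparison of both mutants therefore asks how far losing the enzyme and losing 1 of its target residues leave cells taken from the tumors alike. The wild-type site lies in exon 8 of Nfib on the minus strand, at chr4:82327795-82327824 of GRCm38, and is shown because its codon is what was changed in the NFIB mutant. The capitals mark the codon of arginine 388, at positions 82327810 to 82327812, in both annotated transcripts with a consensus coding sequence, and the recognition letters of EcoRV, gatatc, overlap it.

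Nfib codon 388: catccaacaatcAGAtatcctcctcacctg

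The genes under manipulation were read first. Carm1 stood at 63.4, 79.1 and 50.8 CPM (a gene's counts relative to its library's total as scaled by TMM) in CARM1 knockout replicates 1 to 3 and at 100, 104 and 102 CPM in the NFIB mutant. All CARM1 knockout libraries lay below all NFIB mutant libraries, with a log2 fold change of -0.66 (95% interval -1.38 to 0.06), but TKO replicate 3 was lower still at 44.5 CPM. Reads were counted over the whole gene, so deleted exons were not resolved. Nfib was at 74.5, 216 and 87.2 CPM in the CARM1 knockout and at 105, 83.3 and 91.4 CPM in the NFIB mutant, with overlap and a log2 fold change of 0.43 (interval -0.47 to 1.33). In TKO it was at 420 to 580 CPM. The lysine codon cannot be seen in gene counts. Rbl1, a cell cycle repressor of the Rb family, was at 50.6 to 55.4 CPM in 5 of the 6 mutant libraries and at 1.79 CPM in NFIB mutant replicate 2, while Rbl2 was at 8.17 to 17.1 CPM in all 6.

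Libraries of the mutants held 15848866 to 18615124 reads on genes, so that 3 reads corresponded to 0.169 to 0.203 CPM. Labels call all samples small cell lung cancer cells, but markers of neuroendocrine cells, the defining cell type of that tumor, were low in 5 of the 6 mutant libraries. The 12 markers summed to 59.2, 189 and 2080 CPM in CARM1 knockout replicates 1 to 3 and to 46.4, 33.7 and 51.7 CPM in the NFIB mutant, against 1890 to 4560 CPM in TKO. Only CARM1 knockout replicate 3 reached the range of TKO. The 8 fibroblast markers summed to 15300 to 27000 CPM in the CARM1 knockout and to 10600 to 16800 CPM in the NFIB mutant, and to at most 73.2 CPM in TKO. The 9 macrophage markers ranged from 81.1 CPM (NFIB mutant replicate 3) to 2840 CPM (CARM1 knockout replicate 3), the 10 lung epithelium markers from 3.49 CPM (NFIB mutant replicate 3) to 2810 CPM (NFIB mutant replicate 1). The lymphocyte markers summed to at most 0.449 CPM in any mutant library. In bulk samples fewer cells of a type and less RNA per cell cannot be told apart, and the part of cell composition in the results below was not tested.

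**Figure D1:**
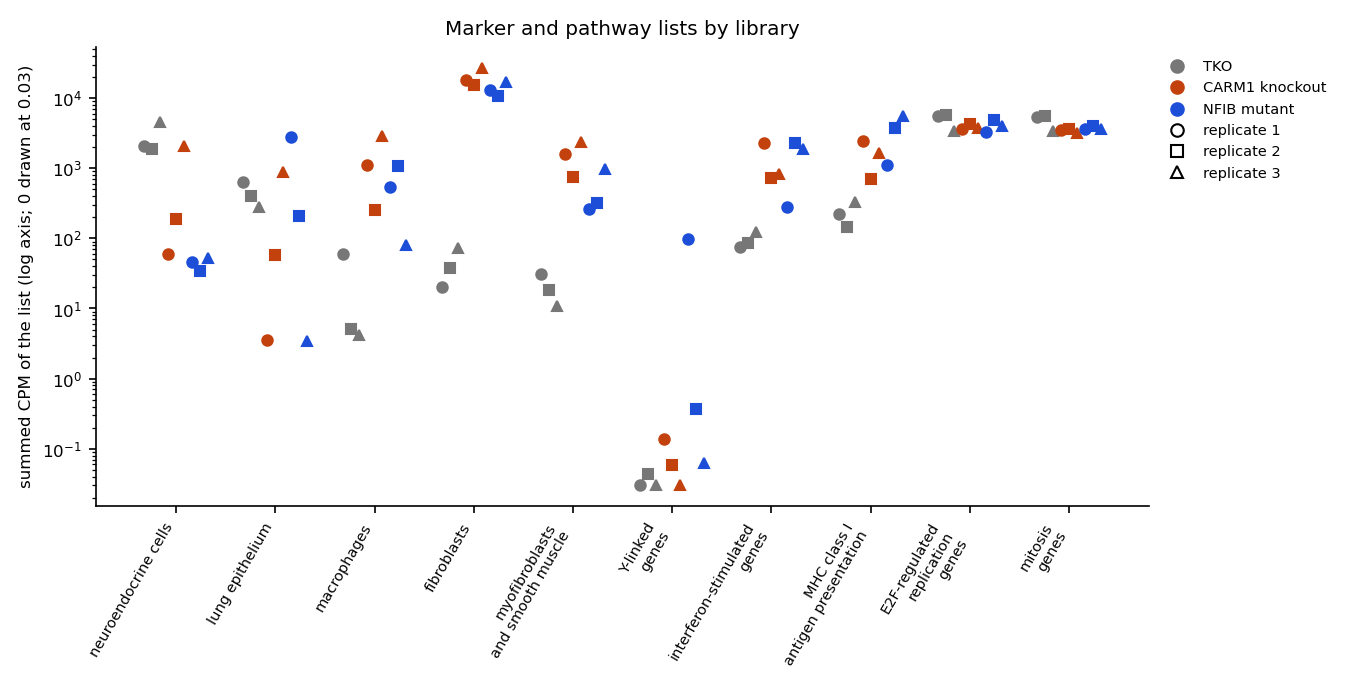
Summed RNA-seq CPM of marker and pathway lists (log axis) in each of 9 libraries, colored by genotype and shaped by replicate. Neuroendocrine markers in CARM1 knockout replicate 3 (2080 CPM) stand with TKO, lung epithelium and Y-linked genes are highest in NFIB mutant replicate 1, and replication and mitosis genes lie close together in all mutant libraries.

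No gene was called different between the mutants. A call was made where the quasi-likelihood test of edgeR, adjusted by Benjamini-Hochberg, gave a p under 0.1 and the log2 fold change was 0.8 or more in either direction. Of 15514 genes 0 (0%) passed, with 0.115 as the lowest adjusted p of any gene. At an unadjusted p under 0.05 there were 1414 genes (9.11% of those tested), 821 higher in the CARM1 knockout (5.29%) and 593 lower (3.82%), a split that was 994 to 474 with libraries scaled by totals alone. In 2416 genes (15.6%) the libraries of the genotypes did not overlap, with the CARM1 knockout on top in 1152 (7.43%) and the NFIB mutant on top in 1264 (8.15%). With 3 libraries against 3 and no difference, a share of 0.1 is to be had without overlap. The count of calls depended on the test. DESeq2, the tool of the study, called 458 genes (2.95%), 273 higher and 185 lower in the CARM1 knockout, of which 314 did not overlap between genotypes and 96 were also called after leaving out any 1 of the 6 mutant libraries. limma voom called 6 genes. Nothing below is therefore stated as a change, and the genes are given with their values. The 25 genes of smallest p were singled out after their values had been seen, and the others follow a rule of size.

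Among genes higher in the CARM1 knockout the smallest p was that of Postn, which encodes periostin, a secreted protein of the extracellular matrix. Postn (chr3:54361109-54391037) was at 110, 83.2 and 373 CPM in the CARM1 knockout and at 3.4, 0.986 and 1.91 CPM in the NFIB mutant. Its lowest CARM1 knockout library lay far above its highest NFIB mutant library, and in TKO it was at 0.288 to 0.487 CPM. The log2 fold change was 6.48 (SE 0.638, interval 5.01 to 7.96), and the adjusted p was 0.115 by edgeR's quasi-likelihood test. This fold change stayed between 5.54 and 7.02 when any 1 of the 6 mutant libraries was left out. Myo7a, an unconventional myosin known from the hair cells of the inner ear, was at 147, 119 and 114 CPM against 9.67, 7.71 and 26.7 CPM, a log2 fold change of 3.10 (SE 0.481). NFIB mutant replicates 1 and 2 lay below TKO (13.5 to 28.6 CPM) and replicate 3 within it, while CARM1 knockout libraries lay above both genotypes. Tmeff1, a transmembrane protein with an EGF-like domain, showed another order, with 124 to 205 CPM in TKO, 30.8, 48.9 and 35.6 CPM in the CARM1 knockout and 8.39, 2.40 and 4.64 CPM in the NFIB mutant (log2 fold change 2.90, SE 0.428). Elovl4, an enzyme that elongates very long fatty acids, had the same order, at 17.1, 17.7 and 21.1 CPM against 7.84, 7.40 and 4.89 CPM, with 63.7 to 76.2 CPM in TKO.

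Other genes of small p in this direction had lower levels or smaller differences. Epop, a protein that joins Elongin BC to Polycomb complexes, was at 16.7, 24.6 and 22.8 CPM in the CARM1 knockout and at 6.93, 6.41 and 8.32 CPM in the NFIB mutant (log2 fold change 1.56, interval 1.10 to 2.03). Both mutants lay below TKO, where it was at 65.1 to 71.6 CPM. Tbc1d4, a regulator of glucose transporter traffic, was at 17.1, 23.8 and 21.4 CPM against 6.32, 5.12 and 7.18 CPM (log2 fold change 1.74, interval 1.18 to 2.30), and the CARM1 knockout values overlapped those of TKO (22.9 to 29.3 CPM). Gtf3a, the factor TFIIIA of 5S ribosomal RNA genes, was at 31.3, 40.7 and 33.5 CPM against 14.9, 11.3 and 14 CPM (log2 fold change 1.39, interval 0.86 to 1.92). Here it was the NFIB mutant that overlapped TKO (12 to 17.4 CPM). Htr2b, a serotonin receptor, was near the limit of detection, at 0.933 to 1.36 CPM in the CARM1 knockout and 0.0608 to 0.127 CPM in the NFIB mutant. Amd2, a copy of the gene for S-adenosylmethionine decarboxylase, was at 4.27 to 7.59 CPM against 0.243 to 0.616 CPM, and its reads may be shared with the parent gene.

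A few genes were read in the CARM1 knockout and were at 0 counts, or close to it, in every NFIB mutant library. Fkbp6 (chr5:135291704-135350044), an immunophilin-like protein known from male germ cells, was at 13.9, 13.1 and 22.8 CPM in the CARM1 knockout and at 0 in all 3 NFIB mutant libraries. TKO libraries held 0, 2 and 0 reads of it, so the CARM1 knockout stood apart from both other genotypes. Set against 3 counts per library, Fkbp6 was at least 89.2-fold higher in the CARM1 knockout (adjusted p = 0.205 by edgeR's quasi-likelihood test). Gm9008 had the same pattern, with 15.4, 18.8 and 13.4 CPM against 0, at least 85.3-fold higher. Clstn2, which encodes calsyntenin-2, a cadherin-like protein of synapses, was at 0.949, 46.0 and 60.8 CPM against 0.243, 0.308 and 0 CPM. Clstn2 rested on replicates 2 and 3 of the CARM1 knockout, and replicate 1 lay nearer to the NFIB mutant than to them. The reverse was seen at lower levels, as for Ano2, at 0 in every CARM1 knockout library and at 1.03, 1.48 and 1.21 CPM in the NFIB mutant.

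Macrophage-associated genes stood among the largest differences in this direction. Ccl6, a chemokine of myeloid cells, was at 350, 52.5 and 664 CPM in the CARM1 knockout and at 0.122, 0.247 and 0 CPM in the NFIB mutant (log2 fold change 11.41, interval 6.22 to 16.61). Mmp12, the elastase of macrophages, was at 598, 22.1 and 859 CPM against 0.851, 14 and 0.381 CPM. Clec4n, a C-type lectin receptor, and Atp6v0d2, a subunit of the vacuolar proton pump, followed the same order of libraries. In all of these, replicate 2 was the lowest CARM1 knockout library, as it was for the summed macrophage markers (1130, 256 and 2840 CPM against 542, 1080 and 81.1 CPM). Of the 8 macrophage markers tested 1, the mannose receptor Mrc1, was at an unadjusted p under 0.05 (50.3, 5.48 and 55.7 CPM against 0.912, 2.77 and 0.0635 CPM), and Ptprc, Cd68, Csf1r, Itgam and Cd14 overlapped between genotypes, with NFIB mutant replicate 2 among the 3 highest libraries. The median log2 fold change of the list was 1.42, against 0.01 over all genes tested.

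Toward the NFIB mutant, the largest differences by the rule of size were those of Gm13394, Gm4737, Rps3a3 and Rps3a2, which are gene copies or predicted genes. The next was Clic5 (chr17:44188584-44280172), a member of the chloride intracellular channel family. Clic5 was at 38.9, 21.7 and 12.8 CPM in the NFIB mutant, at 0.339, 0.117 and 0.225 CPM in the CARM1 knockout and at 0.569 to 5.18 CPM in TKO. The log2 fold change was -6.72 (SE 0.842, interval -8.66 to -4.78) with an adjusted p of 0.205 by edgeR's quasi-likelihood test. This fold change stayed between -7.11 and -6.22 with any 1 of the 6 mutant libraries left out. Spg11 (chr2:122053520-122118386), which encodes spatacsin, a protein of lysosome renewal, was at 60.5, 64.1 and 86.4 CPM against 15.4, 17.7 and 20.4 CPM. TKO lay between the mutants at 35.7 to 40.3 CPM, and no libraries of different genotypes overlapped. Its log2 fold change of -1.98 (SE 0.194) had the smallest p of all genes, 8.72e-06, and an adjusted p of 0.115 by edgeR's quasi-likelihood test. Col16a1, a fibril-associated collagen, was at 284, 262 and 272 CPM against 101, 120 and 116 CPM (log2 fold change -1.28, SE 0.142), with 6.30 to 8.02 CPM in TKO.

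Genes of small p on this side included enzymes of metabolism, as did those on the other side with Elovl4 and Amd2, and enzymes were not counted as a list. Qpct, glutaminyl cyclase, was at 39.6, 68.1 and 39.2 CPM in the NFIB mutant and at 5.90, 4.37 and 5.96 CPM in the CARM1 knockout. Fah, the last enzyme of tyrosine breakdown, was at 40.4, 58.9 and 70.5 CPM against 19.7, 12.2 and 17.4 CPM, and Glul, glutamine synthetase, at 171, 155 and 131 CPM against 70.8, 59.7 and 83.4 CPM. CARM1 knockout values of Fah overlapped those of TKO (12.5 to 18.0 CPM), whereas Glul in TKO (86.1 to 101 CPM) lay between the mutants. Nnt, the mitochondrial transhydrogenase that makes NADPH, was at 127, 127 and 148 CPM against 59.1, 51.6 and 49.4 CPM. Lipe, hormone-sensitive lipase, was at 28.0, 24.1 and 26.6 CPM against 9.83, 9.74 and 6.85 CPM, and Hddc3 at 21.9, 19.0 and 11.8 CPM against 3.46, 1.63 and 2.81 CPM. Log2 fold changes of these 6 genes ran from -3.18 for Qpct to -1.10 for Glul, and in none did the genotypes overlap. The mice had a mixed strain background, and the part of strain in single genes was not tested.

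Regulators were found here as well. Max, the partner of MYC proteins in DNA binding, was at 55.3, 68.0 and 60.5 CPM in the NFIB mutant and at 29.3, 31.1 and 24.7 CPM in the CARM1 knockout (log2 fold change -1.11, interval -1.55 to -0.67). CARM1 knockout libraries were below all TKO libraries (63.7 to 95.2 CPM), and NFIB mutant libraries overlapped them. Kitl, the ligand of the KIT receptor, was at 39.5, 49.6 and 53.7 CPM against 22.0, 16.5 and 17.5 CPM (log2 fold change -1.35), and Maf1, a repressor of RNA polymerase III, at 134, 123 and 141 CPM against 60.9, 60.2 and 73.0 CPM (log2 fold change -1.03). Myc itself overlapped, at 78.9, 87.2 and 56.1 CPM in the CARM1 knockout and at 93.6, 92.3 and 44.7 CPM in the NFIB mutant. Mycl, a MYC family gene of small cell lung cancer, lay on the other side, at 14.7, 7.87 and 11.4 CPM in the CARM1 knockout and at 1.4, 2.03 and 2.16 CPM in the NFIB mutant (log2 fold change 2.60, unadjusted p = 0.0367 by edgeR).

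Other large differences toward the NFIB mutant leaned on 1 library. Krt19, a keratin of simple epithelia, was at 720, 54.8 and 89.3 CPM against 2.98, 25.1 and 8.60 CPM, and Serpina3n, a secreted protease inhibitor, at 277, 64.6 and 61.8 CPM against 12.7, 2.92 and 3.15 CPM. Both were highest in NFIB mutant replicate 1, the library with the most lung epithelium marker RNA, and the genotypes did not overlap without it either. The annotated pseudogene Gm13394 was at 468 CPM in NFIB mutant replicate 1 and at 0.0562 to 1.33 CPM in the other 5 libraries. Rps3a3 and Rps3a2, annotated processed copies of a ribosomal protein gene, were at 202 and 216 CPM in NFIB mutant replicate 2 and at most at 1.09 CPM elsewhere among the mutants. Such copies share reads with their parent genes and are uncertain, and the same holds for Gm3608 (43.0, 28.2 and 54.2 CPM against 1.83, 0.350 and 0.730 CPM), a pseudogene that did not rest on 1 library, and for Gm4737.

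**Figure D2:**
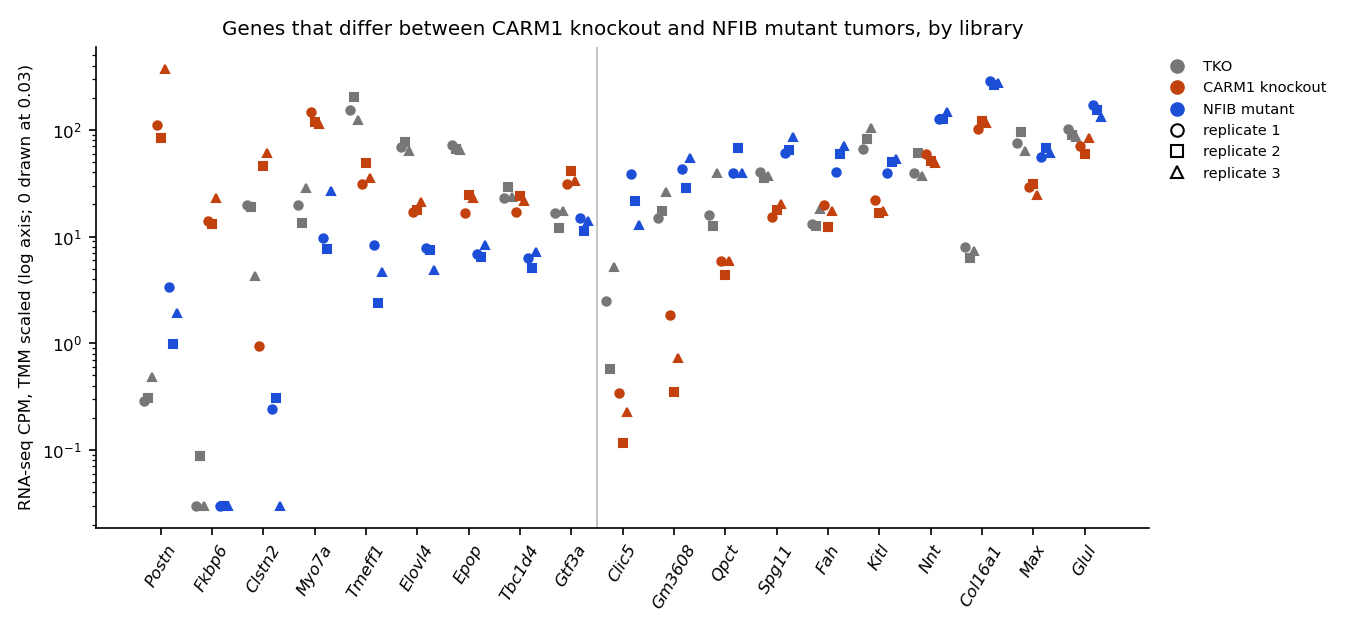
RNA-seq CPM (log axis, values at 0 drawn at 0.03) of 19 genes in each of 9 libraries, colored by genotype and shaped by replicate. Genes higher in the CARM1 knockout stand on the left of the vertical line and genes higher in the NFIB mutant on the right, and in each of them the libraries of the mutants do not overlap.

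Gene lists were read by their counts against the background of 5.29% higher and 3.82% lower at an unadjusted p under 0.05. The 12 neuroendocrine markers had the most, with 10 higher in the CARM1 knockout and 0 lower, and a median log2 fold change of 6.2. Chga, chromogranin A of secretory granules, was at 0.203, 0.525 and 211 CPM in the CARM1 knockout and at 1.34, 0.247 and 0.191 CPM in the NFIB mutant. Its log2 fold change of 6.87 was -0.65 without replicate 3 of the CARM1 knockout. Without that library, when 6.71% of all genes were at an unadjusted p under 0.05 (3.26% higher and 3.45% lower), 2 markers were higher and 2 lower. Uchl1, a deubiquitinase of neurons, and Ncam1, a neural adhesion molecule, were the 2 that remained higher. Uchl1 was at 24.1, 33.4 and 181 CPM against 11.7, 17.9 and 3.37 CPM, and Ncam1 at 34.6, 149 and 99.3 CPM against 25.5, 14.2 and 46.6 CPM. Of the 17 neural fate factors tested, 3 were higher and 1 lower, all with at most 6.32 CPM in any mutant library other than CARM1 knockout replicate 3.

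Markers of contractile cells did not all lie on the same side. Of 8 myofibroblast and smooth muscle markers 3 were higher at an unadjusted p under 0.05 and 0 lower, and the list had a median log2 fold change of 1.87. Without CARM1 knockout replicate 3 the counts were 2 higher and 1 lower. Tagln, an actin-binding protein, was at 256, 132 and 291 CPM against 26.9, 17.4 and 132 CPM (log2 fold change 1.94), and Myl9, a myosin light chain, at 130, 61.4 and 146 CPM against 10.1, 15.3 and 57.6 CPM (log2 fold change 2.02). The third was Myh11, smooth muscle myosin, with at most 7.59 CPM. Acta2, smooth muscle actin, was at 762, 331 and 1540 CPM against 71.6, 103 and 377 CPM, with overlap and an unadjusted p of 0.0612 by edgeR. In all of them NFIB mutant replicate 3 was the nearest to the CARM1 knockout, apart from Myh11. Des, desmin of muscle cells, was higher in every NFIB mutant library (4.8, 5.49 and 8.32 CPM) than in the CARM1 knockout (0.475, 0.117 and 3.65 CPM), with a log2 fold change of -2.12 and an unadjusted p of 0.133 by edgeR. General fibroblast markers gave 0 higher and 0 lower of 8, with Col1a1 at 6750, 6200 and 10100 CPM against 3950, 2370 and 7800 CPM, and Pdgfra, a receptor of fibroblasts, at 528, 249 and 230 CPM against 1110, 485 and 367 CPM.

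Matrix and signaling lists were near the background. Of 18 collagens 1 was higher and 1 lower, namely Col11a1, a minor fibrillar collagen, at 20.7, 680 and 121 CPM against 8.69, 28.0 and 21 CPM, and Col16a1. Of 17 matrix glycoproteins 1 was higher (Postn) and 0 lower. Of 17 matrix proteases and their inhibitors 1 was higher (Mmp12) and 1 lower, Mmp19, which was at 118, 79.9 and 57.5 CPM against 235, 196 and 156 CPM. Of 16 chemokines and cytokines tested 1 was higher and 0 lower. That gene was Cxcl12, the ligand of the receptor CXCR4, at 421, 1360 and 476 CPM in the CARM1 knockout and at 148, 86.7 and 238 CPM in the NFIB mutant (log2 fold change 2.26, interval 1.07 to 3.44, adjusted p = 0.487 by edgeR's quasi-likelihood test). Its genotypes did not overlap, and TKO was at 2.19 to 2.88 CPM.

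Immune response lists spread widely within each genotype. The 22 interferon-stimulated genes gave 0 higher and 0 lower, and summed to 2300, 726 and 818 CPM in the CARM1 knockout and to 277, 2310 and 1900 CPM in the NFIB mutant. Isg15, a ubiquitin-like protein induced by interferon, was at 229, 64.4 and 72.9 CPM against 3.04, 197 and 205 CPM. The lowest library of this list was NFIB mutant replicate 1, whose 3.04 CPM of Isg15 lay far under the other 5. Of 9 genes of MHC class I antigen presentation 0 were higher and 1 lower, H2-D1, a class I heavy chain, at 705, 185 and 545 CPM against 492, 1570 and 2270 CPM (log2 fold change -1.59, with overlap). The acute-phase genes gave 0 and 0 of 7 tested, and Saa3, one of them, spanned 38.4 to 2500 CPM within the mutants.

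Growth control lists differed in how many genes had a 95% interval of the log2 fold change within 0.8 of zero. Of all genes tested 26.7% had such an interval. The share was 41.3% when only genes with at least 10 counts in every library were fitted, and 35.4% with the 6 mutant libraries alone. Of 27 replication genes regulated by E2F 0 were higher and 1 lower, and 12 had such an interval. Summed CPM of this list ran from 3660 to 4320 in the CARM1 knockout and from 3300 to 4840 in the NFIB mutant. Of 22 mitosis genes 1 was higher and 0 lower, with 11 intervals within 0.8. Of 24 Trp53 targets 0 were higher and 1 lower, with 8 within 0.8. The lower gene was Cdkn1a, the CDK inhibitor p21, at 25.8, 22.0 and 41.9 CPM against 94.7, 77.9 and 40.2 CPM (log2 fold change -1.24). NFIB mutant replicate 3 lay within the CARM1 knockout range for it. Of 10 CDK inhibitors and D cyclins 0 were higher and 2 lower, with 2 within 0.8, and the lower ones were Cdkn1a again and Cdkn2d, the CDK inhibitor p19, at 46.6, 53.9 and 52 CPM against 61.5, 87.2 and 64.4 CPM. Of 9 AP-1 factors 0 were higher and 1 lower, Jun, at 140, 125 and 93.1 CPM against 263, 237 and 155 CPM (log2 fold change -0.87, no overlap). Of 14 genes of cholesterol synthesis 0 were higher and 2 lower, Fdps and Sc5d. The lists of YAP and TEAD targets, heat shock, hypoxia and Hox genes held no gene at an unadjusted p under 0.05.

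Most NFI family members and their partners were not resolved. Nfix was at 301, 291 and 268 CPM against 234, 233 and 305 CPM and was the 1 of 7 with an interval within 0.8 of zero (-0.38 to 0.69). Nfia and Nfic overlapped, with bounds beyond 0.8, and Carm1 did not overlap, as given above. Trim29, named in the study as a reader of methylated NFIB, was at 7.32, 1.34 and 13.9 CPM in the CARM1 knockout and at 0, 0.493 and 1.84 CPM in the NFIB mutant (log2 fold change 3.26, unadjusted p = 0.0486 by edgeR), with overlap. Tdrd3, another reader of methylated arginine, was at 17.8, 20.6 and 18.7 CPM against 20.5, 13.7 and 13.6 CPM.

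Agreement between the mutants was measured by intervals, since a p that misses a threshold does not show that levels are equal. For 4148 genes (26.7% of those tested) the whole 95% interval of the log2 fold change lay within 0.8 of zero. For another 7678 genes the estimate lay within 0.8 but a bound did not, so these could not be placed on either side. The median absolute log2 fold change over all genes was 0.3189. Narrow intervals were found for Ythdf1, a reader of methylated adenosine in RNA, at 102, 105 and 95.6 CPM against 109, 100 and 102 CPM (log2 fold change -0.04, interval -0.31 to 0.24). Zdhhc5, a palmitoyl transferase, was at 208, 203 and 175 CPM against 198, 197 and 208 CPM (interval -0.33 to 0.25), while TKO was at 66.3 to 67.6 CPM. Arih1, a ubiquitin ligase (interval -0.24 to 0.33), and Ddx46, a splicing helicase (interval -0.18 to 0.37), were as close. A narrow interval need not hold zero, as for Rab31, a small GTPase of vesicle traffic, with a log2 fold change of -0.37 (interval -0.64 to -0.10).

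High expression did not make a gene resolved. Col1a1, among the most abundant transcripts of the mutants, had a log2 fold change of 0.70 with an interval of -1.31 to 2.72. Fn1, fibronectin, at 4980, 5390 and 2250 CPM against 4790, 5450 and 3890 CPM, had -0.16 (interval -1.31 to 0.98). Eef1a1, a translation factor with many processed copies, had -0.05 (interval -0.90 to 0.81), and Gapdh -0.37 (interval -1.07 to 0.33). Vim, vimentin of mesenchymal cells, was at 2260, 2970 and 2510 CPM against 2700, 3550 and 5710 CPM, with an interval of -1.65 to 0.40.

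**Figure D3:**
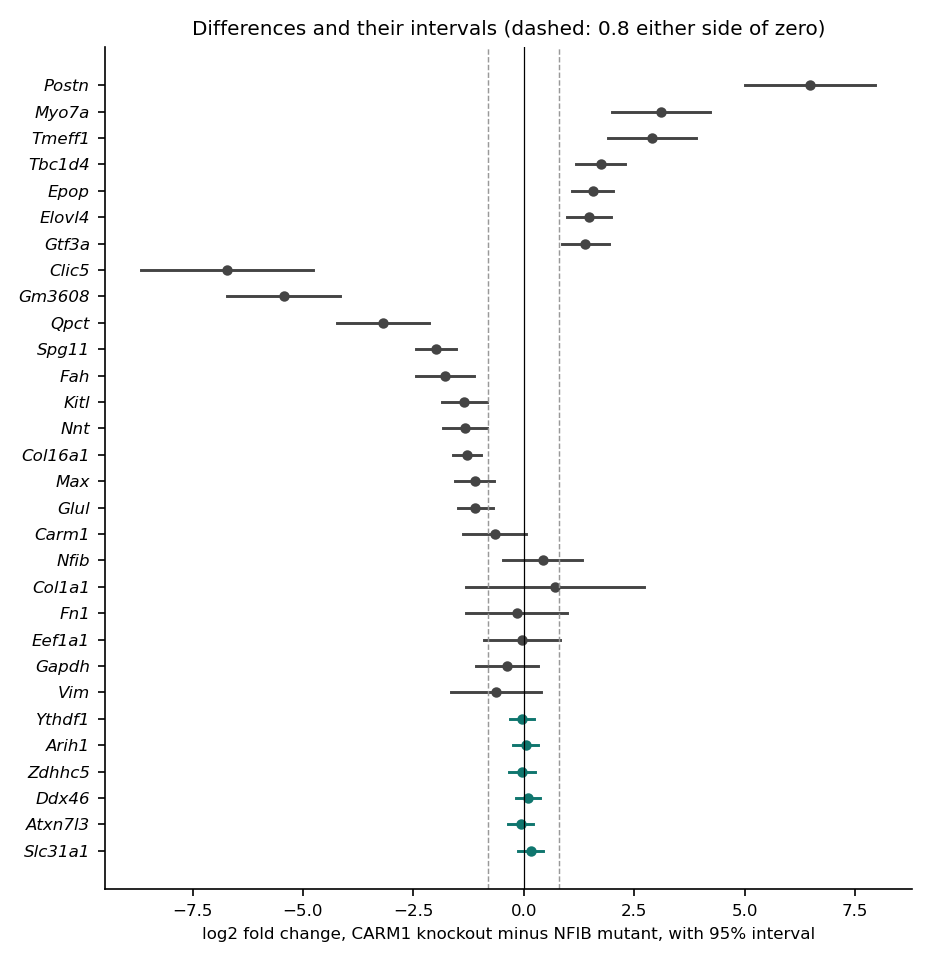
Log2 fold change, CARM1 knockout minus NFIB mutant, with its 95% interval for 30 genes, and dashed lines at 0.8 either side of zero. The 6 genes at the bottom lie inside the dashed lines (Ythdf1 from -0.31 to 0.24), Postn and Clic5 lie far outside, and Col1a1 spans -1.31 to 2.72.

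Spread among the 6 mutant libraries was then split into parts between and within genotypes. Over the 15514 genes, library pairs of different genotypes had a mean correlation of log2 CPM of 0.895, pairs within the CARM1 knockout 0.896 and pairs within the NFIB mutant 0.915, all read as a description across genes that share libraries. Pairs with CARM1 knockout replicate 3 ran from 0.839 to 0.879 and all other pairs from 0.892 to 0.942. Among 11243 genes with at least 10 CPM in a mutant library, 24.1% of the summed squares lay between genotypes, where 20% of the degrees of freedom lie and which is the share to be had with no difference. Without CARM1 knockout replicate 3 the share was 26.4%, against 25%. Of the 1414 genes at an unadjusted p under 0.05, 407 remained so in the same direction with each of the 6 mutant libraries left out in turn, 202 higher and 205 lower in the CARM1 knockout. Without CARM1 knockout replicate 3 706 of the 1414 were lost, 427 of them higher in the CARM1 knockout, and the other libraries took 446 to 663 each.

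Genes that set 1 library apart were counted next, as those in which it lay over 4-fold beyond the other 5 mutant libraries. CARM1 knockout replicate 3 had the most, 361 above and 24 below (3.42% of 11243). NFIB mutant replicate 3 had 21 above and 135 below, NFIB mutant replicate 1 had 78 and 57, NFIB mutant replicate 2 had 39 and 43, CARM1 knockout replicate 2 had 44 and 14, and CARM1 knockout replicate 1 had 10 and 26. In CARM1 knockout replicate 3 the genes farthest above included Calca, the calcitonin peptide gene of lung neuroendocrine cells, at 833 CPM and at most 0.350 CPM in the others. Kcnc1, a neuronal potassium channel (43.8 CPM), Resp18, a protein of secretory granules (92.3 CPM), and Spock1 (37.9 CPM) were also in that set. The log2 fold change of Calca was 10.84 with all libraries and 0.32 without replicate 3. Cd34 (1.18 CPM against 14 to 152 CPM) and Gata4 (0.674 CPM against 8.11 to 33.1 CPM) were among the genes farthest below in it.

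Other libraries were marked by other genes. NFIB mutant replicate 1 held surfactant genes of alveolar cells, Sftpb at 1740 CPM, with 35.9 CPM in replicate 2 and at most 2.53 CPM elsewhere among the mutants, and Sftpa1 at 104 CPM. It also had Xist, the RNA of the inactive X chromosome, at 5.47 CPM against 405 to 701 CPM in the other 5, and a sum of Y-linked marker genes of 99.5 CPM against at most 0.370 CPM. By these genes it alone read as male, and the part of sex in the results was not tested. NFIB mutant replicate 2 held Pf4, a platelet chemokine, at 207 CPM (0.243 to 8.20 CPM elsewhere) and Ifi202b, an interferon-inducible gene, at 0.0616 CPM (26.8 to 99.7 CPM elsewhere). NFIB mutant replicate 3 held Loxl4, a lysyl oxidase, at 204 CPM (6.57 to 17.2 CPM elsewhere), Clca3a1 at 211 CPM (1.48 to 11.9 CPM), and Lyz2, the lysozyme of macrophages, at 0.953 CPM (96.2 to 1970 CPM). CARM1 knockout replicate 2 was marked by the protease gene Adamts16 at 101 CPM (at most 0.955 CPM elsewhere) and F13a1, a coagulation factor subunit, at 81.1 CPM (at most 1.14 CPM). Frzb, a secreted Wnt antagonist, at 184 CPM (3.15 to 26.3 CPM elsewhere), and Trf, transferrin, at 47.2 CPM (at most 1.16 CPM) marked CARM1 knockout replicate 1. None of these genes was called by edgeR.

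**Figure D4:**
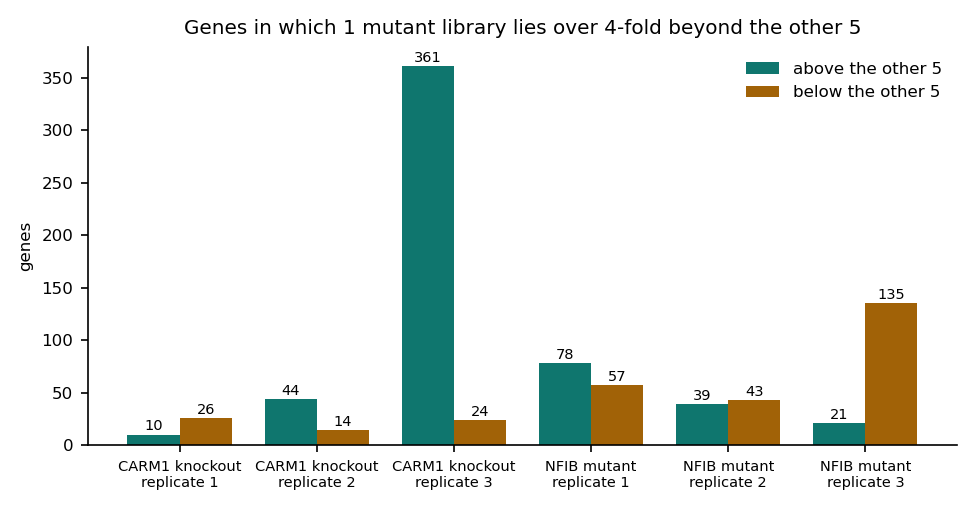
Number of genes, of 11243 with at least 10 CPM, in which 1 mutant library lies over 4-fold above (green) or below (brown) the other 5. CARM1 knockout replicate 3 has 361 genes above, and NFIB mutant replicate 3 has 135 below.

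Chromatin accessibility of the same genotypes, by ATAC-seq, was a readout that played no part in choosing the genes. Each genotype had 3 ATAC-seq libraries with 26917178 to 47653979 reads on a merged set of 111664 peaks. The text of the study states that both assays used the same biopsies, so the assays are not independent sets of animals. The labels do not say that equal replicate numbers are the same tumor in both assays. How far a shared cell composition enters the agreement below was not tested. Over all peaks, 11.8% did not overlap between the mutants, where a share of 0.1 is to be had with 3 libraries against 3 and no difference. Of the 13944 tested genes with a peak within 1000 bp of a start site, 7.14% had a start-site peak whose libraries did not overlap in the direction of the RNA and 2.1% in the opposite direction. Among the 1262 of them at an unadjusted p under 0.05 the shares were 21.2% and 0.951%. The share in the direction of the RNA was 25.9% for the 351 genes whose p held without each mutant library, and 19.3% for the 911 genes that lost it without at least 1. Of the 25 named genes with a peak that were chosen for size or smallest p, 14 did not overlap in the direction of the RNA and 0 in the opposite one.

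Fkbp6, at 0 counts in NFIB mutant RNA, had a start-site peak of 3.36, 2.23 and 2.64 CPM in the CARM1 knockout and 0.209, 0.313 and 0.255 CPM in the NFIB mutant. TKO lay with the NFIB mutant at 0.19 to 0.339 CPM, as in the RNA. At Clstn2 the values were 4.01, 22.5 and 9.71 CPM against 1.35, 1.16 and 0.825 CPM, with replicate 1 again the lowest of the CARM1 knockout. Postn was low in both, at 1.01, 0.942 and 1.4 CPM against 0.120, 0.506 and 0.629 CPM, a ratio of means of 2.67. Tmeff1 (17.1, 25.4 and 19.4 CPM against 8.47, 7.42 and 11.1 CPM) and Myo7a (6.77, 9.38 and 9.05 CPM against 3.14, 3.66 and 4.17 CPM) had ratios of 2.29 and 2.30. Toward the NFIB mutant, Krt19 was at 17.1, 6.41 and 8.25 CPM against 1.78, 3.27 and 3.20 CPM, Max at 24.5, 50.2 and 34.7 CPM against 17.8, 19.5 and 17.6 CPM, and Clic5 at 3.80, 5.68 and 7 CPM against 2.95, 2.38 and 2.64 CPM. In all of these genes the libraries of the genotypes did not overlap.

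For other genes of small p in RNA the start-site peak overlapped between genotypes. Spg11 had 22.4, 25.7 and 29.2 CPM against 22.5, 29.8 and 24.9 CPM, a ratio of 1. Ratios were 0.988 for Nnt, 1.02 for Glul, 1.03 for Maf1 and 0.794 for Col16a1, with overlap in each. Gm9008, which had the pattern of Fkbp6 in RNA, did not have it here. Its peak was at 10.7, 12.1 and 10.2 CPM in the CARM1 knockout and at 6.97, 12.1 and 8.92 CPM in the NFIB mutant. In TKO, with almost no RNA of Gm9008, the peak was at 20.4 to 26.4 CPM. Start sites of marker genes were also read by library. The 12 neuroendocrine start-site peaks summed to 70.8, 109 and 152 CPM in CARM1 knockout replicates 1 to 3 and to 62.4, 43.1 and 56.6 CPM in the NFIB mutant, against 502 to 587 CPM in TKO. The 9 lung epithelium start-site peaks summed to 31.4, 61.9 and 69.2 CPM in the CARM1 knockout and to 62.9, 40.7 and 37.3 CPM in the NFIB mutant, so NFIB mutant replicate 1 did not stand apart there as it did in RNA. Among them Sftpb was at 11.8 CPM in NFIB mutant replicate 1 and at 1.06 to 2.55 CPM in the other mutant libraries, and Sftpc, another surfactant gene, at 0.987 CPM in that library and 2.28 CPM in CARM1 knockout replicate 3. Peaks of the Y chromosome summed to 809, 528 and 779 CPM in the CARM1 knockout and to 1190, 1020 and 787 CPM in the NFIB mutant.

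**Figure D5:**
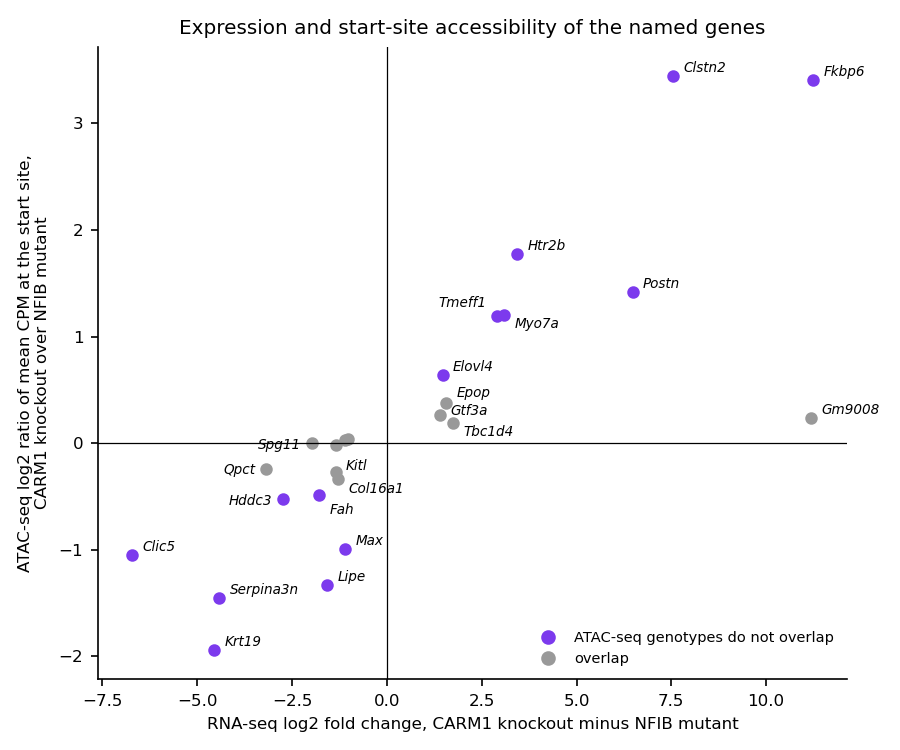
RNA-seq log2 fold change (CARM1 knockout minus NFIB mutant) on the horizontal axis and log2 ratio of mean ATAC-seq CPM at the start site on the vertical axis, for the 25 named genes with a peak there. The 14 purple genes had ATAC-seq libraries that did not overlap, all on the side of their RNA, while Spg11 did not follow it, and fitted RNA values of Fkbp6 and Gm9008, at 0 in the NFIB mutant, depend on the prior count.

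Promoters of 5 genes with both RNA and start-site differences are given because start-site libraries did not overlap there, as the 250 bases before the RefSeq start on GRCm38.p6, read along the gene's strand. Capitals mark the NFI half-site TTGGC or its reverse GCCAA, searched on both strands. At least 1 half-site was found in 41.5% of 32851 promoters of this length and 2 or more in 11.5%. Postn (chr3:54360857-54361106, plus strand), Fkbp6 (chr5:135350045-135350294, minus strand) and Max (chr12:76962249-76962498, minus strand) had 1 each. In Clstn2 (chr9:98033168-98033417, minus strand) and Clic5 (chr17:44188322-44188571, plus strand) these letters were not present in the window.

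Postn promoter: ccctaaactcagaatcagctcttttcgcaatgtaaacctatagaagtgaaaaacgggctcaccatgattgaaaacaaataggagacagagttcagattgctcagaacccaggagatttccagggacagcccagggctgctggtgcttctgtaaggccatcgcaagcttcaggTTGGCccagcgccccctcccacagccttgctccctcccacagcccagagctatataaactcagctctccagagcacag

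Fkbp6 promoter: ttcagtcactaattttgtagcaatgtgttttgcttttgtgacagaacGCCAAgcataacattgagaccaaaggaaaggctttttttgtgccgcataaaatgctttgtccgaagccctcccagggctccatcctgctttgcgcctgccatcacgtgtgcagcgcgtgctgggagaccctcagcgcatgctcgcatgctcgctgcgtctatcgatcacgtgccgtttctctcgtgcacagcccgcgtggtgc

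Clstn2 promoter: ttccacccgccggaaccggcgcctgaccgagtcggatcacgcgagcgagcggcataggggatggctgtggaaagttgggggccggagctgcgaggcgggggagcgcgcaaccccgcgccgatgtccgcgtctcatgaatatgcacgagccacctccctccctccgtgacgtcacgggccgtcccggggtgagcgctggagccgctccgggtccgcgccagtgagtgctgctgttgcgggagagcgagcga

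Clic5 promoter: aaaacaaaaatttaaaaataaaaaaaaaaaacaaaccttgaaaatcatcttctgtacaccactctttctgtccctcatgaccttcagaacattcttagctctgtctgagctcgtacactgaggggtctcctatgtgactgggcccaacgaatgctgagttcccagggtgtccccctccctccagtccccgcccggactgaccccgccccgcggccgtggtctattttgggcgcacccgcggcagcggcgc

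Max promoter: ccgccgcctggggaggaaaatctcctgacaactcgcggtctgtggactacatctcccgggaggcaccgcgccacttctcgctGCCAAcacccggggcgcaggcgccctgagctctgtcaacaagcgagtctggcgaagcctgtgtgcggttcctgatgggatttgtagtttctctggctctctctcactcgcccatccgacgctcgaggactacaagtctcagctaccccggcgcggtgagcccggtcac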

How the data were processed

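RNA-seq and ATAC-seq libraries of cells from TKO, CARM1 knockout and NFIB mutant tumors were used, 3 per genotype and assay. For RNA-seq the authors trimmed reads, mapped them to GRCm38 (mm10) with HISAT2 and deposited raw counts per gene from htseq-count. ATAC-seq values deposited by the authors are raw read counts on 1 merged peak set, made with featureCounts 1.6.3 per the file header, after duplicate removal. The column letters C, KO and N were matched to the 3 genotypes (C to TKO) through the study's legends. All values were whole numbers, and 0 pairs of RNA-seq libraries were identical. Reads without a feature were 3.647 to 5.172% in the mutants.

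Tests were run with edgeR 4.0.16 in R 4.3.3 (TMM factors, filterByExpr, robust quasi-likelihood test over all 9 libraries, Benjamini-Hochberg adjustment), limma 3.58.1 and DESeq2 1.42.0. Figures were drawn with matplotlib 3.10.9. Intervals are Wald intervals from the same model and could not be formed for 358 tested genes. Depth was 15848866 to 18615124 counts per mutant library, and bounds against 3 counts cover counting error only. ATAC-seq was scaled by TMM and given without tests, for the peak whose middle lay within 1000 bp of a start site. Gene copies and antisense genes are uncertain, since the strand setting is not given in the sources used here.

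Genes named were, at an unadjusted p under 0.05 with libraries that did not overlap and a mean of at least 10 CPM in the higher genotype, the 8 largest differences in each direction. Added were the genes that set 1 library apart (at least 32 CPM), the 10 narrowest intervals, the 10 highest levels, members of 37 lists, the targeted genes and, after values were seen, the 25 smallest p. The genes and lists were chosen with earlier results of these data known. Equal replicate numbers were not taken as pairs in the main fit. Alternatives were other scalings, filters and tests, the mutants alone, a replicate block and leaving out each library. The fits were tested on simulated data, where recovery of changed genes was required only at a spread well below that of these data. That check does not show how many differences the main fit would miss. Single replication genes and some other genes are not reported here, and protein sequences were not analysed here.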

Additional observations from a re-analysis of the deposited data

How the results depend on the processing

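With 3 animals per genotype the intervals of many genes were wide, and the part of sequencing depth in this was not tested. Genes under about 0.2 CPM could not be told from 0. Genes called numbered 0 by edgeR under TMM, DESeq2 size factors, library totals, no filter and the 6 mutant libraries alone, and 5 with at least 10 counts in every library (among them Spg11, Col16a1, Epop and Tbc1d4, at adjusted p of 0.0574 to 0.0693), 458 by the DESeq2 Wald test and 6 by limma voom (among them Gm9008, Fkbp6, Col16a1, Spg11 and Ano2). Leaving out 1 library gave 0 to 2 calls by edgeR, the 2 being Gm3608 and BC002163, a pseudogene, without CARM1 knockout replicate 1. Ano2 and BC002163 were named after their values were seen. By DESeq2 the calls ran from 294 without CARM1 knockout replicate 3, of which 175 were shared with the full set, to 657 without CARM1 knockout replicate 1.

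Genes at an unadjusted p under 0.05 numbered 931 with at least 10 counts in every library and 928 without both CARM1 knockout replicate 3 and NFIB mutant replicate 1, an alternative chosen after seeing the data, and 1086 to 1736 with 1 library left out. Split by direction, the count was 528 higher and 587 lower by limma voom, 641 and 688 in the mutants alone, and 527 and 559 without CARM1 knockout replicate 3. Genes with an interval within 0.8 of zero numbered 1918 without both libraries and 2863 to 4962 with 1 left out. They numbered 4845 of 13678 tested (35.4%) in the mutants alone. With at least 10 counts in every library they numbered 4516 of 10947 (41.3%). The median absolute log2 fold change was 0.4557 with no filter, 0.2296 with at least 10 counts in every library, 0.2808 in the mutants alone, 0.3521 without both libraries and 0.3294 to 0.3662 with 1 left out, as other genes passed the filter. Genes with 1 library over 4-fold beyond the others numbered 158 with at least 10 counts in every library and 459 at 8-fold.

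Leaving out 1 library turned the sign for Nfib (-0.21 without CARM1 knockout replicate 2, up to 0.71 without both CARM1 knockout replicate 3 and NFIB mutant replicate 1) and Chga (-0.65 without CARM1 knockout replicate 3, up to 8.28 without NFIB mutant replicate 1), where the library left out at the low value was the one with the high level. With 1 mutant library left out it also turned for genes near zero, Ythdf1 (-0.07 to 0.02), Zdhhc5 (-0.09 to 0.05), Arih1 (-0.01 to 0.07), Eef1a1 (-0.20 to 0.21) and Fn1 (-0.38 to 0.16), and for some genes that set 1 library apart, such as Resp18 (-2.83 to 12.16). Outside these last groups, of 1031 values of 59 single genes, 980 kept direction and side of the threshold and 49 passed the threshold only under the alternative, 40 of them by DESeq2. Start-site ratios moved by less than the larger SD of log2 CPM within a genotype in 90 of 90 values. Their direction was not scored, and some ratios lay at or near 1.

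Deviations of same-numbered mutant libraries from their genotype means had correlations of -0.299, -0.197 and -0.17. With 3 libraries per genotype such deviations depend on each other, so these values cannot show whether replicate numbers mark pairs. With a replicate block 0 genes were called, 970 were at an unadjusted p under 0.05 (489 higher and 481 lower), 3781 had an interval within 0.8 of zero and the median absolute log2 fold change was 0.3198.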
